A study of Mus musculus with 14 samples.

Results

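Interneuron neuropeptides and 2 of their receptors were followed in the medial prefrontal cortex (mPFC) of mice after social defeat. The set holds 10 genes, of which 8 encode peptide precursors (Sst, Cort, Npy, Tac1, Tac2, Vip, Cck and Adcyap1) and 2 encode receptors (Npy1r and Cckbr). Members were taken by name: every non-control probe whose RefSeq transcript belongs to one of these genes was read, which gave 11 probes, 2 of them for Cckbr. The array carried 20887 named genes, and 14451 of them, all 10 members included, were bright enough to be tested. No member passed the test (limma, adjusted p under 0.05) in any comparison of the 3 groups of mice. With the array slide as a block, Sst and Npy passed it in susceptible against naive mice, as did 15.3% of all genes tested.

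Cortical interneurons release GABA, and most also make neuropeptides, which are cut from larger precursors, stored in dense core vesicles and released during strong activity to act on G protein-coupled receptors. Which peptide a cell makes is the usual way to name its class: somatostatin cells contact the dendrites of pyramidal neurons, often together with neuropeptide Y, whereas VIP cells contact mainly other interneurons and cholecystokinin marks a class of basket cells. Several of these genes are not private to interneurons, since cortical pyramidal neurons also make the mRNAs of Cck and Adcyap1, and the receptors stand on excitatory cells as well.

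All mice were wild-type C57BL/6 animals. The susceptible group (6 mice) and the resilient group (3 mice) went through repeated social defeat stress, in which a mouse is placed again and again with an aggressor, and were classed by their behaviour afterwards. The naive group (5 mice) went through cage transfer instead. At 4 h after the last session the brains were perfused, the mPFC was taken with a 1.5 mm punch, and 35 ng of RNA from 1 mouse was labelled with Cy3 for 1 array. The labels give no age and do not say which mice belonged to the same experiment.

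Levels are log2 spot intensities minus the 75th percentile of the same array, so a level of 0 is the brightness of that percentile. Per array, 48.0% to 65.4% of spots exceeded background clearly by the scanner's own flag, and none was saturated. Slide 1 held 2 susceptible, 2 resilient and 1 naive mouse, slide 2 held 2 susceptible, 1 resilient and 2 naive mice, and slide 3, the only one of the second scan day, held 2 susceptible and 2 naive mice. Defeated mice occupied row 2 and naive mice row 1 on every slide, and these 2 factors cannot be told apart. The 75th percentile itself (log2) averaged 7.82 in naive, 8.03 in resilient and 8.22 in susceptible mice. On slides 1 and 2 it was 7.31, 7.36 and 7.25 in naive mice and 7.69 to 8.17 in defeated mice. On slide 3 it was 8.54 and 8.64 in naive mice and 9.24 and 8.63 in susceptible mice. Slide as a block does not remove such a difference within a slide. The part of array brightness in the differences was not tested. The number of arrays limits the precision, and p-values measure the spread between these mice. The tissue was bulk cortex, in which fewer cells of a type and less RNA per cell cannot be told apart.

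Several peptide genes are textbook targets of CREB, a factor that cyclic AMP and calcium signals switch on and that binds the cyclic AMP response element (CRE), TGACGTCA, or its shorter form, TGACG. The Sst promoter is printed whole because Sst is the member with the full element, and the shorter stretches show where the other peptide genes carry the short form. The windows run from 250 bases before to 50 bases after the annotated start site (RefSeq, GRCm38.p6) and read 5′ to 3′ on the strand of the gene. Capitals mark the motif, which reads CGTCA where it lies on the opposite strand. The Sst window is chr16:23890795-23891094, minus strand, with the element beginning 48 bases upstream of the start site.
Sst: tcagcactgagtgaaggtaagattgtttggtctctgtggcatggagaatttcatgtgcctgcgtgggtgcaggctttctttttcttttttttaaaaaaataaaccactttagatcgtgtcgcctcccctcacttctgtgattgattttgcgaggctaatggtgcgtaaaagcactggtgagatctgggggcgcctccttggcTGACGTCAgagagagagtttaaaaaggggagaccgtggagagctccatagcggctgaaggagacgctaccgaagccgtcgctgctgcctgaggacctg

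The stretches of the other peptide genes carry 25 bases on each side of the short form. They lie at chr4:149126752-149126806 on the minus strand (Cort), chr6:7554839-7554893 and chr6:7554993-7555047 on the plus strand (Tac1), chr10:5639114-5639168 on the plus strand (Vip), chr9:121495712-121495766 on the minus strand (Cck) and chr17:93198901-93198955 on the plus strand (Adcyap1). The distance given is from the first capital letter to the start site.
Cort, 18 bases upstream: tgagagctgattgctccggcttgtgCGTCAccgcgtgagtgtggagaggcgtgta
Tac1, 197 bases upstream: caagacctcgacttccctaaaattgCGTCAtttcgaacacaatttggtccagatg
Tac1, 43 bases upstream: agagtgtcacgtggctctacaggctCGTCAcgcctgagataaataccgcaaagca
Vip, 79 bases upstream: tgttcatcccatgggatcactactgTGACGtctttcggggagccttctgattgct
Cck, 47 bases upstream: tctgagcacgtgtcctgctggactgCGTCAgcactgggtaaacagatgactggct
Adcyap1, 91 bases upstream: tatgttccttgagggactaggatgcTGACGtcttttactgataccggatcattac

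All 10 genes had a window in the promoter table, and Adcyap1 had a second, overlapping one that holds the same short form. The full CRE was found in 1.79% of all 32851 promoter windows, and among the members only in that of Sst. The short form, searched on both strands and counted also where it lies inside the full element, was found in 20.8% of all windows and in 6 of the 8 peptide genes. The windows of Npy, Tac2, Npy1r and Cckbr did not contain it. These matches describe letters and say nothing of whether a factor was bound.

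The comparison of susceptible with naive mice asks which peptide mRNAs differ in the cortex of animals that were defeated and stayed affected. Sst and Npy, the peptides of the dendrite-targeting class, were higher in susceptible mice by about the same amount, and Npy1r, a receptor for neuropeptide Y, was lower in every susceptible mouse than in any naive one. Tac2 was higher in all but 1 susceptible mouse, while Cck and Adcyap1 had nearly the same mean in both groups. By sign, 8 of the 10 members were higher and 2, the receptors, were lower. None of the 10 passed limma's test (adjusted p under 0.05), against 2.6% of all genes tested, and 3 (Sst, Npy and Npy1r) had an unadjusted p under 0.05. With slide as a block 2 of the 10 passed (Sst and Npy), against 15.3% of all genes, and with scan day as a block the same 2, against 17.3%. The median difference of the members was 0.26 on the log2 scale, and that of all genes tested was 0.02.

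**Figure D1:**
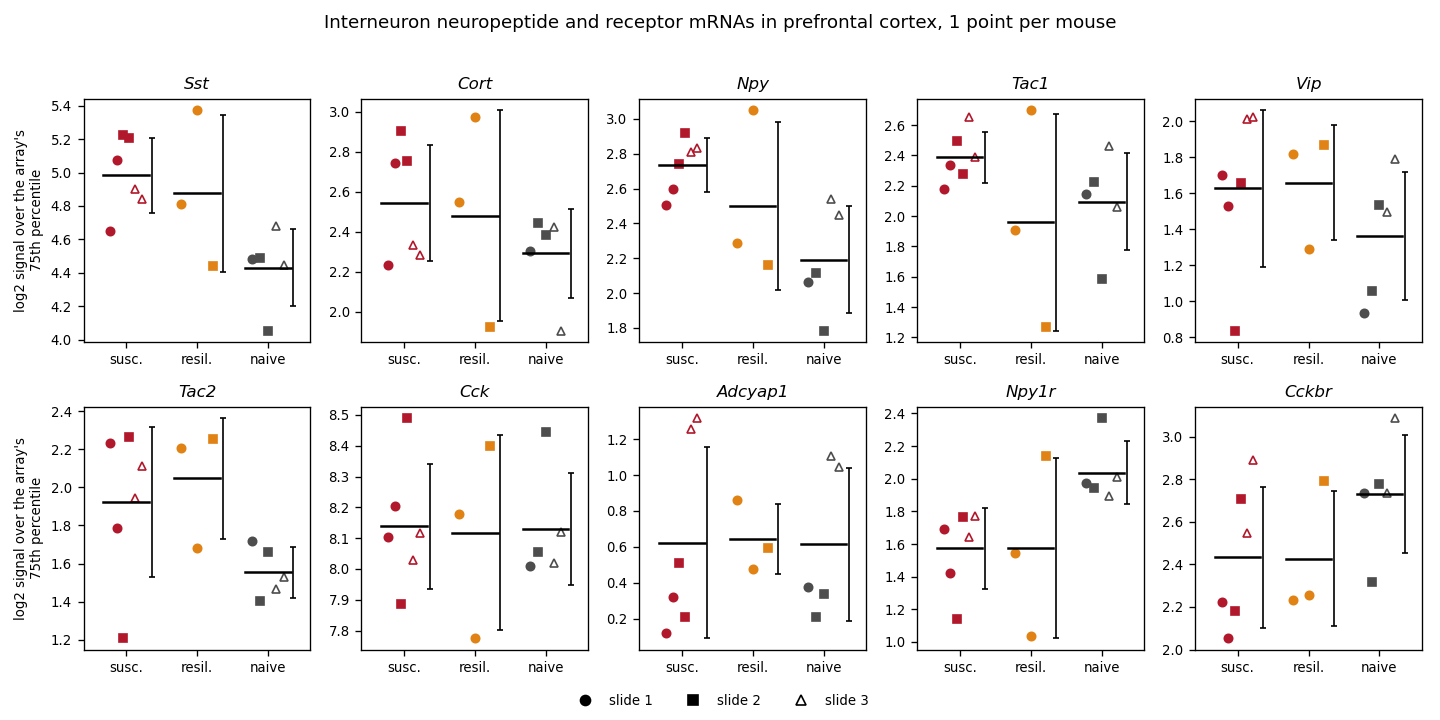
Level of each of the 10 genes in every mouse (log2 signal over the array's 75th percentile, each panel with its own axis) in susceptible, resilient and naive mice. Marker shape gives the slide, the black line the group mean and the bar beside it ±1 SD; the Npy1r points of all 6 susceptible mice lie below all 5 naive ones, and the Adcyap1 points of slide 3 lie at the top of both the susceptible and the naive group.

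Somatostatin, the product of Sst, inhibits its target cells through receptors coupled to inhibitory G proteins. The Sst level ranged from 4.65 to 5.22 in susceptible mice with a median of 4.99, was 4.81, 5.37 and 4.44 in resilient mice, and was 4.48, 4.49, 4.05, 4.68 and 4.45 in naive mice. Of the susceptible mice, 5 of 6 lay above every naive mouse, and the remaining one lay just under the highest naive mouse. The difference was 0.55 ± 0.16 (log2, SE; 1.47-fold; adjusted p = 0.0755, limma), and with slide as a block it was 0.54 ± 0.17 (adjusted p = 0.0484). Within slides the susceptible mean was above the naive mean by 0.38 on slide 1, by 0.94 on slide 2 and by 0.31 on slide 3. The Sst probe was printed 10 times on each array, and the SD between these spots was 0.037 to 0.072. This was far below the spread between mice of a group (0.23 in both the susceptible and the naive group). The spots of an array share 1 labelled sample, so their SD leaves out variation from the punch, the RNA and the labelling. The call with slide as a block was thin: it held in 4 of 14 fits that each left out 1 mouse, and ended without any one of susceptible mice 2, 3, 4 and 5, resilient mouse 1 or the 5 naive mice (adjusted p up to 0.121).

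Cortistatin, the product of Cort, is a close relative of somatostatin that binds the same receptors. The level of Cort ranged from 2.24 to 2.90 in susceptible mice (median 2.54), was 2.55, 2.97 and 1.92 in resilient mice, and 2.31, 2.44, 2.38, 2.42 and 1.91 in naive mice. The groups overlapped throughout, with 3 of 6 susceptible mice above all naive mice. The difference between susceptible and naive mice was 0.25 ± 0.18 (adjusted p = 0.433).

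Neuropeptide Y, made in the cortex by interneurons that often also make somatostatin, is widely studied as a peptide that dampens stress responses in rodents. The Npy level ranged from 2.51 to 2.92 in susceptible mice with a median of 2.78. It was 2.29, 3.05 and 2.16 in resilient mice and 2.07, 2.11, 1.78, 2.54 and 2.45 in naive mice. As for Sst, 5 of 6 susceptible mice exceeded every naive mouse. The difference was 0.54 ± 0.17 (1.46-fold; adjusted p = 0.0844, limma), and 0.56 ± 0.15 with slide as a block (adjusted p = 0.0334). It was 0.49, 0.88 and 0.32 within slides 1, 2 and 3. The call with slide as a block held in 8 of 14 fits without 1 mouse, and ended without susceptible mouse 3, 4 or 5 or naive mouse 1, 2 or 3 (adjusted p up to 0.0898).

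Npy1r encodes the Y1 receptor, which answers neuropeptide Y by lowering cyclic AMP. Its level ranged from 1.14 to 1.77 in susceptible mice (median 1.67), was 1.54, 1.04 and 2.14 in resilient mice, and 1.97, 1.94, 2.37, 1.89 and 2.01 in naive mice. Among the 10 members Npy1r alone had susceptible and naive groups that did not overlap, with all 6 susceptible mice below all 5 naive mice. Such separation was seen in 1.64% of all genes tested for lower and in 2.49% for higher values. The difference was -0.46 ± 0.18 (0.725 times the naive level; adjusted p = 0.134, limma) and -0.43 ± 0.17 with slide as a block (adjusted p = 0.0957). Within slides it was -0.41, -0.71 and -0.24.

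Tac1 encodes the precursor of substance P and neurokinin A, and Tac2 that of neurokinin B, peptides that excite cells through tachykinin receptors. The Tac1 level ranged from 2.18 to 2.66 in susceptible mice (median 2.36), was 1.91, 2.70 and 1.27 in resilient mice, and 2.14, 2.22, 1.59, 2.47 and 2.06 in naive mice. All 6 susceptible mice lay above the naive mean, but only 2 of 6 above every naive mouse, and the difference was 0.29 ± 0.21 (adjusted p = 0.418). The Tac2 level ranged from 1.21 to 2.26 in susceptible mice (median 2.03), was 2.21, 1.68 and 2.26 in resilient mice, and 1.72, 1.40, 1.66, 1.46 and 1.53 in naive mice. For Tac2, 5 of 6 susceptible mice were above every naive mouse and the other one, mouse 3, was below all of them. The Tac2 difference was 0.37 ± 0.18 (adjusted p = 0.217). Without susceptible mouse 3 it was 0.51 (adjusted p = 0.0697), and with slide as a block in addition 0.54 (adjusted p = 0.0325), so this call stood only with that mouse left out.

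VIP and PACAP, the products of Vip and Adcyap1, are sister peptides that share receptors and raise cyclic AMP in their target cells. The Vip level ranged from 0.84 to 2.02 in susceptible mice (median 1.68), was 1.82, 1.29 and 1.87 in resilient mice, and 0.94, 1.05, 1.54, 1.50 and 1.79 in naive mice. The lowest value of all belonged to susceptible mouse 3, and the groups overlapped. The Vip difference was 0.27 ± 0.22 (adjusted p = 0.477), and 0.30 ± 0.18 with slide as a block (adjusted p = 0.236). Of the 14 fits with this block that left out 1 mouse, only the one without susceptible mouse 3 called it (0.47, adjusted p = 0.0430). The Adcyap1 level was 0.12, 0.32, 0.51, 0.21, 1.26 and 1.32 in susceptible mice, 0.86, 0.48 and 0.59 in resilient mice, and 0.37, 0.21, 0.34, 1.11 and 1.04 in naive mice. The 4 highest values were those of the 4 mice on slide 3, of which both susceptible mice lay above both naive mice. Within slides the susceptible minus naive difference was -0.16 on slide 1, 0.086 on slide 2 and 0.21 on slide 3. The Adcyap1 difference between susceptible and naive mice was 0.01 ± 0.25 (adjusted p = 0.988), and 0.07 ± 0.10 with slide as a block.

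Cholecystokinin, the product of Cck, is made by a class of basket cells and by many pyramidal neurons, and Cckbr encodes the receptor that answers it in most of the brain. The Cck level ranged from 7.89 to 8.49 in susceptible mice (median 8.11), was 8.18, 7.77 and 8.40 in resilient mice, and 8.01, 8.06, 8.44, 8.02 and 8.12 in naive mice. Its means were nearly equal, with a difference of 0.01 ± 0.13 (95% confidence interval -0.28 to 0.29; adjusted p = 0.975). This value depended on the scaling of the arrays, since quantile normalisation gave 0.38 (adjusted p = 0.144). The level of Cckbr ranged from 2.05 to 2.89 in susceptible mice (median 2.39), was 2.23, 2.25 and 2.79 in resilient mice, and 2.73, 2.32, 2.78, 2.74 and 3.09 in naive mice. Here 3 of 6 susceptible mice lay below every naive mouse, and the difference was -0.30 ± 0.18 (adjusted p = 0.315). The second Cckbr probe was dim, at -2.06 ± 0.46 in susceptible mice, -2.41 ± 0.22 in resilient mice and -2.12 ± 0.79 in naive mice (SD), and was well above background on 13 of 14 arrays. With the mean of both probes the difference was -0.11 (adjusted p = 0.774).

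The comparison of resilient with naive mice asks which of these mRNAs differ in mice that were defeated but withstood it. With 3 resilient mice it was less precise, and it used the same naive mice, so its differences are not independent of those above. None of the 10 members passed, against 0.152% of all genes, and with slide as a block again none, against 3.54%. Unadjusted p was under 0.05 for 3 members (Sst, Tac2 and Npy1r) without and 2 (Vip and Adcyap1) with the block. No member separated the groups, whereas 8.32% of all genes were higher and 6.41% lower in every resilient than in every naive mouse.

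Sst averaged 4.87 ± 0.47 in resilient mice and 4.43 ± 0.23 in naive mice (SD), a difference of 0.44 ± 0.20 (adjusted p = 0.228), beside 0.55 for susceptible mice. Tac2 averaged 2.05 ± 0.32 in resilient mice and 1.55 ± 0.13 in naive mice, a difference of 0.49 ± 0.21 (adjusted p = 0.211), beside 0.37 for susceptible mice. Npy1r averaged 1.57 ± 0.55 in resilient mice and 2.04 ± 0.19 in naive mice, a difference of -0.46 ± 0.21 (adjusted p = 0.239), beside -0.46 for susceptible mice. In each of these genes 2 of the 3 resilient mice lay outside the naive range. Single resilient mice moved these differences: that of Npy1r was -0.20 without mouse 2 and -0.75 without mouse 3, and that of Sst was 0.19 without mouse 2 and 0.66 without mouse 3. Npy differed by 0.31 ± 0.20 (adjusted p = 0.413), or by 0.033 without resilient mouse 2, and Vip by 0.30 ± 0.26 (adjusted p = 0.556). Adcyap1 differed by 0.03 ± 0.30, but by 0.39 ± 0.13 with slide as a block (adjusted p = 0.0879), and no resilient mouse lay on slide 3. The other differences lay between -0.31 (Cckbr) and 0.19 (Cort), and the sign of the Tac1 difference (-0.14) turned to 0.21 without resilient mouse 3, and that of the Cort difference (0.19) to -0.06 without resilient mouse 2.

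Resilient mice 2 and 3 lay far apart for 6 members, Sst, Cort, Npy, Tac1, Cck and Npy1r. Resilient mouse 2 had the highest Sst, Cort, Npy and Tac1 of all 14 mice and the lowest Npy1r and Cck. Resilient mouse 3 had the lowest Tac1 of all 14 mice, the second-lowest Cort, and Npy1r, Cck and Cckbr levels inside the naive range. For these 6 genes the SD of the resilient group was the widest of the 3 groups.

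Susceptible and resilient mice, both defeated, were compared to ask whether these genes follow the behavioural outcome. None of the 10 members passed without or with slide as a block, and neither did any of the 14451 genes (0% in both fits; 108 and 279 genes had an unadjusted p under 0.05). The widest difference was that of Tac1, which averaged 2.39 ± 0.17 in susceptible mice and 1.96 ± 0.72 in resilient mice (0.43 ± 0.25; interval -0.10 to 0.95). This Tac1 difference was 0.084 without resilient mouse 3 and 0.80 without resilient mouse 2, and the range with slide as a block was 0.018 to 0.72 over fits without 1 mouse. The intervals of Sst (-0.30 to 0.52), Npy (-0.19 to 0.66) and Npy1r (-0.44 to 0.44) were wide, and that of Npy reached past its difference between susceptible and naive mice (0.54). The only unadjusted p under 0.05 was that of Adcyap1 with slide as a block, a difference of -0.32 ± 0.12 (adjusted p = 1, limma).

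**Figure D2:**
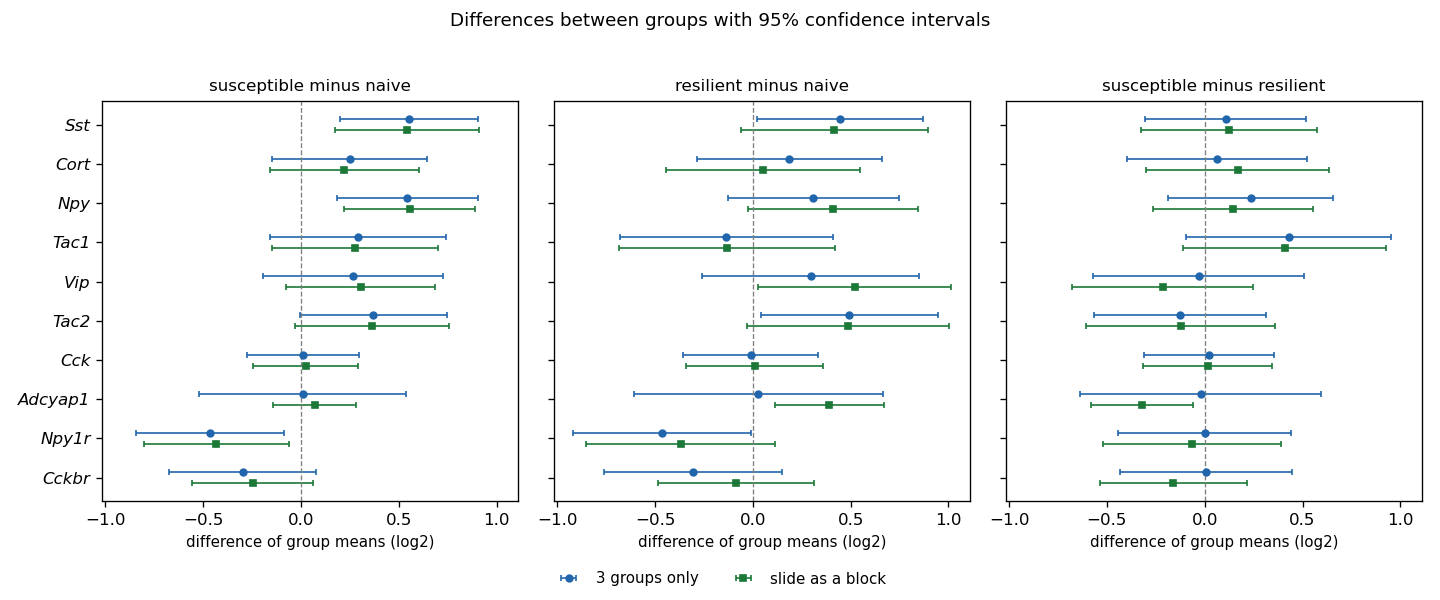
Differences between group means (log2) with 95% confidence intervals for the 10 genes, in the fit of 3 groups only (circles) and with slide as a block (squares). For susceptible minus naive the intervals of Sst, Npy and Npy1r leave out 0 in both fits; for susceptible minus resilient only that of Adcyap1 with slide as a block does.

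Other receptors of these peptides did not pass. Of 15 genes listed, 11 were tested, 0 passed in susceptible against naive mice, and their median difference was 0.01. Vipr2, Cckar, Tacr1 and Tacr3 were too dim to be tested. The smallest p belonged to Sstr2, a somatostatin receptor, at 0.75 ± 0.36 (adjusted p = 0.223), followed by Tacr2, a tachykinin receptor, at -0.34 ± 0.26, and Vipr1, a receptor shared by VIP and PACAP, at 0.13 ± 0.13. With slide as a block 1 of the 11 passed, against 15.3% of all genes. It was Tacr2 at -0.40 ± 0.10 (adjusted p = 0.0247), and Sstr2 gave 0.75 ± 0.25 (adjusted p = 0.0558).

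The enzymes and granins that process and store the peptides were tested in full, 14 of 14. None passed in susceptible against naive mice, 10 were higher by sign and 4 lower, and the median difference was 0.28, beside 0.02 for all genes. The smallest p belonged to Cpe, a carboxypeptidase that trims peptides after cutting, at -0.39 ± 0.12 (adjusted p = 0.0750), to Vgf, a secreted granin whose gene follows neuronal activity, at 0.40 ± 0.13 (adjusted p = 0.0988), and to Pcsk2, a convertase that cuts precursors, at 0.35 ± 0.12. With slide as a block 3 of the 14 passed, against 15.3% of all genes. Vgf at 0.40 ± 0.13 (adjusted p = 0.0499) and Chgb, a granin of the vesicle core, at 0.36 ± 0.11 (0.0484) passed as higher, and Cpe at -0.39 ± 0.10 (0.0304) as lower. In resilient against naive mice none passed, and with slide as a block 2 of the 14 passed, against 3.54% of all genes. Cpe passed as lower (-0.54 ± 0.14, adjusted p = 0.0490) and Pam, which amidates peptide ends, as higher (0.87 ± 0.20, adjusted p = 0.0418).

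Of 25 genes that mark interneurons or their classes, 21 were tested, and Chodl, Elfn1, Adarb2 and Prox1 were too dim. None passed in susceptible against naive mice, 15 were higher and 6 lower by sign, and the median difference was 0.15. Among the genes with the smallest p were Gad1, the main GABA-synthesising enzyme, at 0.40 ± 0.15 (adjusted p = 0.129), and Slc32a1, the vesicular GABA transporter, at 0.23 ± 0.10 (adjusted p = 0.196). With slide as a block 2 of the 21 passed, against 15.3% of all genes, among them Gad1 as higher (0.39 ± 0.12, adjusted p = 0.0434). No gene of the receptor or the interneuron list passed in resilient against naive mice in either fit, and none of the 3 lists had a call in susceptible against resilient mice.

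Levels of markers of other cells also differed between the groups. All 8 markers of meningeal fibroblasts were lower by sign in susceptible than in naive mice, with a median difference of -1.06 and 0 of 8 past the test. Their mean level ranged from -0.74 to 1.68 in susceptible mice, from -0.69 to 1.87 in resilient mice and from 0.88 to 2.39 in naive mice, and 5 of the 8 were well above background on all arrays. All 8 astrocyte markers were lower by sign as well (median -0.38), and 1 of 8 passed, S100b at -0.64 ± 0.16 (adjusted p = 0.0491), while the 6 general neuronal markers had a median of 0.21 and none passed. Of 5 endothelial markers tested 4 were lower by sign (median -0.45), and 1 passed, Slco1a4, a transporter of brain vessels, at -0.73 ± 0.16 (adjusted p = 0.0391). Of 6 oligodendrocyte markers 5 were lower by sign (median -0.43) and 0 passed. Of 6 microglial markers 3 were higher and 3 lower by sign (median -0.11), and 0 passed. Of all genes tested 2.6% passed. With slide as a block 3 of 8 astrocyte and 2 of 5 endothelial markers passed as lower, against 15.3% of all genes. So did 1 of 6 oligodendrocyte and 1 of 6 microglial markers. The mean level ranged from 2.62 to 3.20 in susceptible, 2.51 to 2.91 in resilient and 2.97 to 3.36 in naive mice for astrocyte markers. For endothelial markers it ranged from 1.36 to 1.79 in susceptible, 1.31 to 2.01 in resilient and 1.73 to 2.25 in naive mice. For oligodendrocyte markers it ranged from 1.76 to 2.38 in susceptible, 1.62 to 2.80 in resilient and 1.94 to 3.54 in naive mice. All 7 markers of cortical excitatory neurons were well above background on every array. By sign 4 of them were higher and 3 lower in susceptible than in naive mice (median 0.13). Of these 7, 0 passed, and with slide as a block 1 passed as lower. The mean of 8 markers of striatal neurons, a tissue near the punch in which Tac1 and Npy are also made, ranged from 0.52 to 0.66 in susceptible mice, from 0.40 to 0.71 in resilient mice and from 0.24 to 0.66 in naive mice. By sign 6 of these 8 were higher and 2 lower in susceptible mice (median 0.22), and 1 passed, Adora2a, an adenosine receptor of striatal neurons, which was lower (-0.45 ± 0.077, adjusted p = 0.0175). With slide as a block 1 of these 8 passed as higher and 1 as lower. The part of the markers of all these lists in the differences of the members was not tested.

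Members varied together from mouse to mouse inside the groups. After each group's mean was taken off, Sst correlated with Tac1 (Pearson r = 0.84), Npy (0.81) and Cort (0.77) over the 14 mice, and Npy with Tac1 (0.83). On the other side, Npy1r correlated with Cck (0.83), Tac2 (0.79) and Vip (0.66), and these were opposed to the first set: Sst against Npy1r gave -0.85, Tac1 against Cck -0.82 and Cort against Vip -0.70. Within the first set r ran from 0.36 (Cort with Npy) to 0.84, and within the second from 0.48 (Vip with Cck) to 0.83. Between the sets it ran from -0.85 to -0.064 (Npy with Vip), so that not every pair was clearly opposed in these values. With slide effects removed as well as group means, Npy gave -0.60 with Vip and -0.48 with Tac2. Cort with Npy then gave 0.72 and Vip with Cck 0.91. Both sets were formed from correlations over these same mice, so the split of signs is no test. With only group means removed, Cckbr, left out of both sets, gave 0.64 with Vip, 0.61 with Npy1r, 0.49 with Tac2 and 0.41 with Cck. Against the first set it gave -0.62 with Cort, -0.33 with Tac1 and -0.31 with Sst, but 0.13 with Npy. With slide effects removed as well, Cckbr gave 0.45 with Vip, 0.64 with Npy1r, 0.68 with Tac2 and 0.59 with Cck. It then gave -0.51 with Cort, -0.56 with Tac1, -0.36 with Sst and -0.18 with Npy. Of the 45 pairs of members, 14 had r over 0.5 and 13 under -0.5 with only group means removed. Adcyap1 gave r = -0.0051 against Sst and 0.046 against Npy1r, but 0.57 with Vip, 0.53 with Cckbr and 0.36 with Npy. The positive values did not hold with slide effects removed as well: Adcyap1 then gave -0.21 with Vip, -0.10 with Cckbr and -0.41 with Npy. These values describe 14 arrays in which both genes of a pair share the tissue piece, the labelling, the slide and the brightness of the array, and resilient mice 2 and 3 carry much of the range. The next values leave out the 2 mice farthest from the median of the second gene, with only group means removed. Sst then gave 0.67 with Tac1, 0.67 with Npy, 0.78 with Cort and -0.69 with Npy1r. Other pairs weakened more: Cort gave 0.032 with Npy and 0.076 with Tac1, Vip gave 0.13 with Tac2, and Npy gave -0.25 with Npy1r. These pairs were stronger with slide effects removed as well and the 2 then farthest mice left out. Cort gave 0.60 with Npy and 0.83 with Tac1, Vip gave 0.53 with Tac2, and Npy gave -0.65 with Npy1r.

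**Figure D3:**
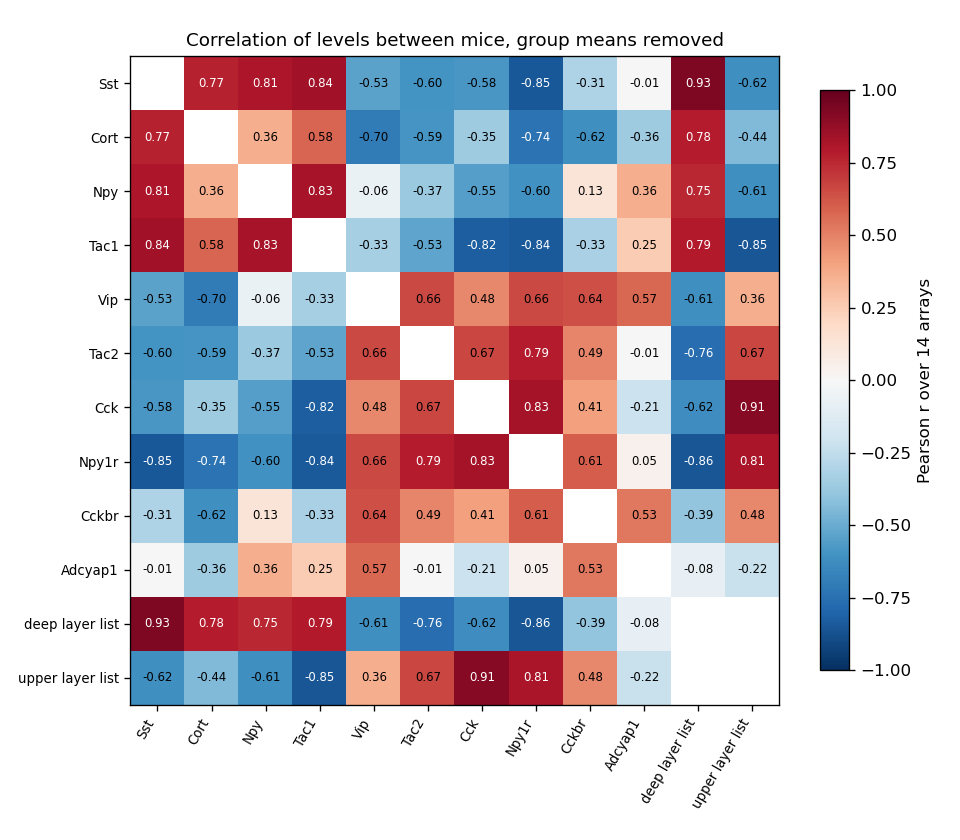
Pearson correlation of levels over 14 arrays after removal of group means, for the 10 genes and the mean of a deep and an upper cortical layer list. Red marks positive and blue negative r. Pairs within Sst, Cort, Npy and Tac1 and within Vip, Tac2, Cck and Npy1r are positive. Pairs between these sets are negative, from -0.85 to -0.064. The sets were formed from these same correlations and leave out Cckbr and Adcyap1.

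The same axis ran through genes that mark cortical layers. Lists of 13 deep layer genes (such as Fezf2, Tle4 and Bcl11b) and 9 upper layer genes (such as Cux2, Rorb and Rasgrf2) were added after this pattern was seen, so they get no test. The mean of the deep list correlated with Sst at 0.93, Tac1 at 0.79, Cort at 0.78, Npy at 0.75, Tac2 at -0.76 and Npy1r at -0.86, after group means were removed. The mean of the upper list correlated with Cck at 0.91, Npy1r at 0.81, Sst at -0.62 and Tac1 at -0.85. Within slides the deep list and Sst gave 0.94, 0.94 and 0.99 on slides 1, 2 and 3, over 5, 5 and 4 mice. Other pairs were weaker: on slide 3 the deep list gave 0.66 with Tac1 and -0.51 with Cck. Over all mice it gave -0.62 with Cck and -0.61 with Vip. Without the 2 mice farthest from the list's median these were -0.30 and -0.32, and that of Sst was 0.90. The upper list gave 0.36 with Vip and -0.44 with Cort. With slide effects removed as well, the upper list gave 0.79 with Vip and -0.66 with Cort. The deep list then gave -0.78 with Vip and -0.68 with Cck. Without the 2 mice then farthest from its median, the deep list gave -0.61 with Vip and -0.31 with Cck. Resilient mouse 2 had the highest deep list mean of all (1.82) and resilient mouse 3 the lowest (1.03). Between groups the list means overlapped. The deep list mean ranged from 1.17 to 1.71 in susceptible, 1.03 to 1.82 in resilient and 1.12 to 1.60 in naive mice. The median difference of its genes between susceptible and naive mice was 0.07, with -0.06 for the upper list. Single upper genes ran from -0.33 (Rorb) to 0.37 (Rasgrf2). No gene of either list passed there, against 2.6% of all genes. With slide as a block 1 of the 13 deep genes passed as higher and 0 of the 9 upper genes passed, against 15.3%. Means of several other lists followed these members too, after group means were removed. The meningeal marker mean gave r = 0.81 against Npy1r and -0.72 against Sst, but -0.41 against Npy and, on slide 3, -0.18 against Sst. Against Npy1r and Sst the oligodendrocyte mean gave -0.69 and 0.61, the interneuron list -0.74 and 0.59, and the striatal mean -0.63 and 0.67. The astrocyte mean gave 0.34 and -0.22, and the microglial mean 0.33 and -0.065. The part of layer content in the differences of the members was not tested.

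**Figure D4:**
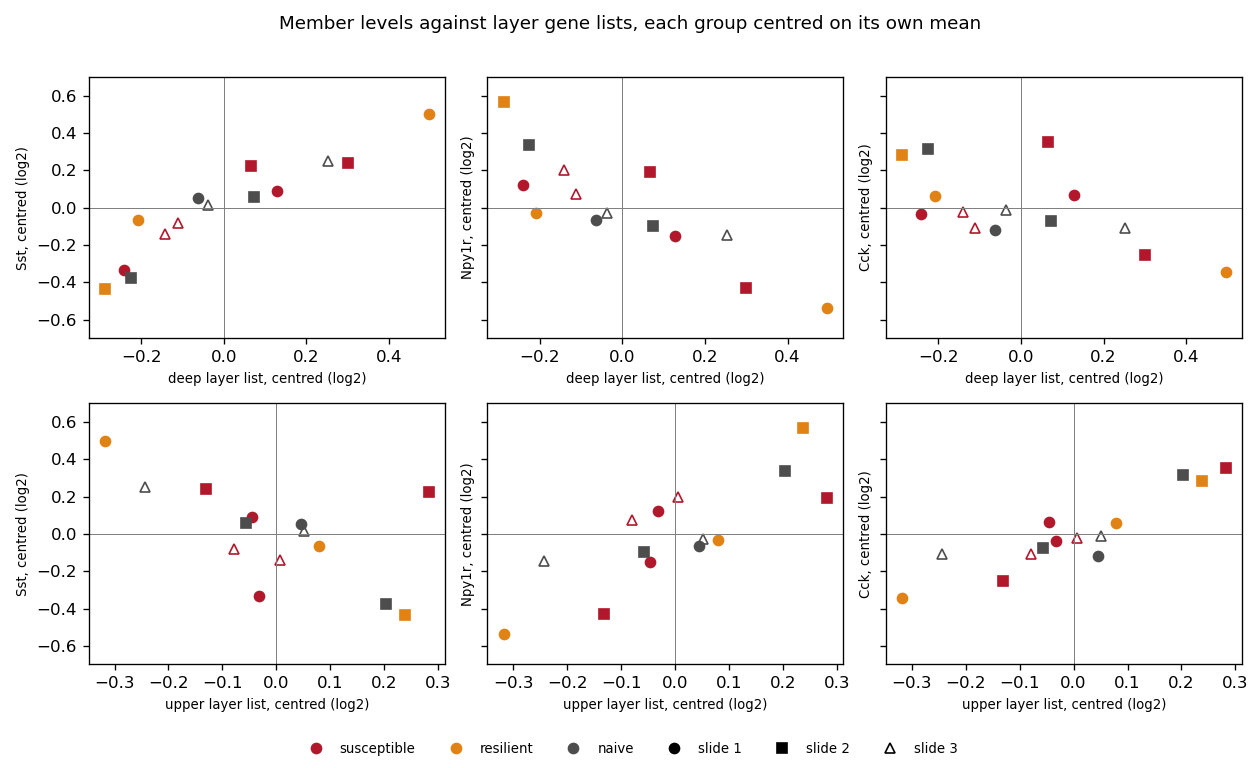
Sst, Npy1r and Cck in each mouse against the mean of the deep (top) and upper (bottom) layer list, all centred on the group mean (log2). Colours give susceptible, resilient and naive mice and marker shapes the slides; Sst rises and Npy1r falls along the deep list (r = 0.93 and -0.86), and Cck rises along the upper list (r = 0.91).

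The genes whose pattern over the 14 mice was most like that of a member, by Pearson r after removal of group means, included layer list genes for some members. For Sst they were Arhgap25 (0.91), Nxph3 (0.90) and Tle4 (0.90), and for Tac1 Bcl11b (0.94), Nxph3 (0.89) and Slc17a6 (0.89). For Cck they were Vstm2l (0.97), Rorb (0.93) and Nlrp1a (0.93). Tle4 and Bcl11b, deep layer transcription factors, and Rorb, an upper and middle layer factor, are also on the layer lists. These likenesses come from the same 14 mice as the correlations with the lists, so they add no separate evidence. For Npy the nearest genes were Nacad (0.94), Bpifb1 (0.92) and Cplx1 (0.91), and for Vip they were Snapc3 (0.97), Aqp11 (0.96) and Drc1 (0.94). With slide effects removed as well, 1 of the 3 stayed among the nearest 3 for Npy (Nacad), Vip (Snapc3), Cck (Vstm2l) and Tac1 (Bcl11b), and none for Sst.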

How the data were processed

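Per the submitters' processing notes, the scanner files were made with Agilent Feature Extraction 11.0.1.1; these deposited files give linear spot intensity, of which the background-subtracted signal, not yet normalised between arrays, was taken. The authors' deposited value table holds log2 values that differ from it by 1 constant per array. Control spots (3671 of 62976) and outlier spots (104 to 184 per array) were dropped, log2 values of a probe's spots were averaged, and the 75th percentile of the array was taken off. Genes were named by transcript through RefSeq (GRCm38.p6), the brightest probe stood for a gene, and a gene was tested if its probe was flagged above background throughout 1 group or more. One limma fit (3.58.1, R 4.3.3) of 14 arrays in 3 groups gave the differences, with Benjamini-Hochberg adjustment over 14451 genes; it was tested on simulated data. All members are named; of the receptor, processing and interneuron lists, the genes past the threshold and the 3 smallest p in susceptible against naive mice. Markers of other cells past the threshold there were named after their values were seen. Members and lists were chosen with earlier results of these data known. One gene of the interneuron list is counted but not reported here.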

Additional observations from a re-analysis of the deposited data

Results flagged for a closer look

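In 20 groups of 5 or 6 mice (10 genes in susceptible and in naive mice) the highest or lowest mouse was checked with Dixon's test, which flags about 1 in 20 groups by chance. It singled out 3 values, all in naive mice. For Cort, naive mouse 5 was far below the others at 1.91. For Cck, naive mouse 3 was far above the others at 8.44, and for Npy1r the same mouse was far above them at 2.37. Naive mouse 3 also had the lowest Sst (4.05) and Npy (1.78) of all 14 mice. Without it the susceptible minus naive difference of Npy1r was -0.38 (adjusted p = 0.282, limma), that of Sst was 0.46 and that of Npy was 0.44.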

How the results depend on the processing

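The number of members past the test in susceptible against naive mice was 0 in the fit of 3 groups alone and 2 (Sst and Npy) with slide or with scan day as a block. It was 0 with quantile normalisation, normexp background, other filters, probes averaged per gene, the values of the authors' table, only the groups compared and other eBayes settings. Without 1 mouse it ranged from 0 to 2, fits with slide as a block included. In the other comparisons it was 0 in each of these fits. Of 1170 differences recomputed, 93 changed sign, 18 newly passed and 1059 did neither. The values of Sst, Npy, Tac2, Npy1r and Vip against naive mice kept their sign in every fit run.

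Values that changed sign were small or rested on 1 mouse. The Cck difference of resilient from naive mice (-0.012) was 0.0094 with slide as a block, 0.35 with quantile normalisation and 0.072 with normexp background. Between susceptible and resilient mice, normexp gave 0.020 for Adcyap1 (-0.021) and 0.00054 for Npy1r (-0.00075), and the authors' table gave 0.0052 for Npy1r. Cckbr (0.0081) was there -0.16 with slide and -0.11 with scan day as a block and -0.0049 with quantile normalisation.

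Without 1 mouse, fits with slide as a block included, the differences of susceptible from naive mice ranged from -0.061 to 0.12 for Cck and from -0.13 to 0.13 for Adcyap1. Those of resilient from naive mice ranged from -0.17 to 0.50 for Cort, from -0.51 to 0.29 for Tac1, from -0.15 to 0.16 for Cck, from -0.080 to 0.47 for Adcyap1 and from -0.49 to 0.096 for Cckbr. Those of susceptible from resilient mice ranged from -0.17 to 0.36 for Sst, from -0.25 to 0.40 for Cort, from -0.088 to 0.51 for Npy, from -0.39 to 0.13 for Vip, from -0.32 to 0.084 for Tac2, from -0.15 to 0.16 for Cck, from -0.40 to 0.088 for Adcyap1, from -0.29 to 0.28 for Npy1r and from -0.23 to 0.19 for Cckbr. The cause of these changes was not tested beyond the loss of a mouse.

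The labels do not say that the replicate number pairs mice of different groups. Deviations of same-numbered mice correlated between -0.38 and 0.71 over 11 pairs. Most of these pairs also shared a slide, so the values cannot tell pairing by number from sharing a slide. Over all pairs of mice from different groups the median r was 0.27 on the same slide and -0.079 on different slides. Fits with replicate number as a block held only the groups compared, and only mice whose number occurs in both. In these fits no member passed. Sst was 0.58 (adjusted p = 0.0599) and Npy 0.52 (adjusted p = 0.0506) in susceptible against naive mice, and Adcyap1 was -0.13. In susceptible against resilient mice the replicate block gave -0.053 for Cck and -0.27 for Cckbr. Over all genes the replicate block gave 691 calls in susceptible against naive mice and 1207 in resilient against naive mice. The fit of all groups without a block gave 376 and 22. Without a block, the fits of all mice of only the groups compared gave 66 and 0. These counts differ in the mice used as well as in the block, so the part of the block was not tested.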
